A study of Homo sapiens with 12 samples.

Results

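The genes of cholesterol and fatty acid synthesis were followed in 2 human cell lines, U2932 and TMD8, 4 h after an anti-CD20 antibody. The module holds 36 of the 58884 genes in the count table and was chosen by gene symbol, namely 18 enzymes from the mevalonate pathway to cholesterol, 6 regulators of SREBP or carriers of sterol, 9 enzymes of fatty acid and lipid synthesis, and 3 targets of LXR (ABCA1, ABCG1 and MYLIP) taken as a contrast. Both lines are established lines of diffuse large B-cell lymphoma (DLBCL) of the activated B-cell subtype, with the genotype given as WT. Each received rituximab (R), ofatumumab (OF) or a human IgG1 isotype antibody as control, all at 20 µg/mL. R and OF are monoclonal antibodies that bind different epitopes of CD20, the surface protein encoded by MS4A1. Every line was divided into 2 cultures kept apart for a week before treatment, and each culture gave 1 library per antibody, so that 12 libraries formed 6 groups of 2. Each line is thus 1 cell line with 2 cultures, and p-values measure the spread between those cultures.

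Cells make cholesterol from acetyl-CoA through mevalonate, farnesyl diphosphate, squalene and lanosterol. When sterol in the endoplasmic reticulum is low, SCAP carries the SREBP proteins (encoded by SREBF1 and SREBF2) to the Golgi, where they are cut and released to switch on genes of sterol and fatty acid synthesis, and when sterol is plentiful INSIG proteins hold SCAP back. LXR receptors respond to oxidized sterols and switch on export genes such as ABCA1 and ABCG1. Dividing B cells need sterol and fatty acids for new membrane.

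Promoters of these genes commonly hold a CCAAT box, the binding motif of NF-Y, a factor known to work together with SREBP. RefSeq promoters (GRCh38.p14), each 250 bases before and 50 bases after a start site, were matched for 31 of the 36 members and gave 44 promoters; none was matched for ACAT2, SQLE, FASN, ABCG1 and FDFT1. The stretches below are upstream of the start site and lie in no annotated exon, with CCAAT on either strand (CCAAT or ATTGG) in capitals. They are shown because the first 5 belong to members that passed the test in the comparisons that follow. LPIN1 was the only member whose fall passed the test in U2932 without a correction for GC content, and holds no CCAAT in this stretch. The choice was made with these calls known, so the display is no comparison of rising and falling members. CYP51A1, called with both antibodies in U2932, also held no CCAAT in its promoter, and neither did a further promoter of HMGCS1. HMGCS1 lies at chr5:43313513-43313662 on the minus strand, MSMO1 at chr4:165327419-165327622, NSDHL at chrX:152830813-152830966, INSIG1 at chr7:155297628-155297775, SCD at chr10:100346983-100347123 and LPIN1, at the first of its 3 promoters, at chr2:11677294-11677543, all of the latter on the plus strand.
HMGCS1: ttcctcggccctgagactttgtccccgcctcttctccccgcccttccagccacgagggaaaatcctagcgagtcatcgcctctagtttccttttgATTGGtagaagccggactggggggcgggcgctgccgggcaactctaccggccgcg
MSMO1: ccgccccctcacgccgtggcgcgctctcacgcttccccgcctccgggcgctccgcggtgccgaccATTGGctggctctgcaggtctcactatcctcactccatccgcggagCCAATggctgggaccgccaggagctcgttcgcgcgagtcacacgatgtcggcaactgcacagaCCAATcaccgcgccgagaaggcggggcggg
NSDHL: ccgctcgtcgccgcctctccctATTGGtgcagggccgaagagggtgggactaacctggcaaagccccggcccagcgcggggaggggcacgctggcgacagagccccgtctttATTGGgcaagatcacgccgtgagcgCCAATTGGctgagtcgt
INSIG1: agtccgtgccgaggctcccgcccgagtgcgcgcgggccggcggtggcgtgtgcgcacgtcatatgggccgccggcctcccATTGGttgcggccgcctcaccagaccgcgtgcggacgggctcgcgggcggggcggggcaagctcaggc
SCD: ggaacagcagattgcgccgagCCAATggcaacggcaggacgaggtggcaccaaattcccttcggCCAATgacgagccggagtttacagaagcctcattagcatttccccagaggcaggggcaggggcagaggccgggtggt
LPIN1: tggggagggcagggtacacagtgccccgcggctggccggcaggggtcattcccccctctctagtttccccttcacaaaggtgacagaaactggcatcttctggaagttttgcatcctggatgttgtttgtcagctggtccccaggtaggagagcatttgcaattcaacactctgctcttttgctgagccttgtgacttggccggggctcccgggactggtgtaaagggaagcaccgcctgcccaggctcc

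The MSMO1 stretch held 3 matches, NSDHL 4 of which the last pair overlap on opposite strands, SCD 2, and HMGCS1 and INSIG1 1 each. Over the whole 300-base windows CCAAT was found in 26 of the 44 member promoters, or 59.1%, and in 34.6% of 35116 promoters of all genes. GGGCGG, the core of an SP1 box, was found in 39 of 44 (88.6%) against 45.0% of all promoters. A sterol regulatory element spelled TCACNCCAC was found only in the promoter of SREBF2, 133 bases before the start, against 1.13% of all promoters, and CACGTG, an E-box, in 6 of 44 (13.6%) against 7.26%. Both strands were searched and none of the 4 strings contains another. A match is a description of the letters and not a bound site.

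The libraries held 15440226 to 27110612 counts on genes. B-cell genes were abundant in every library (19132 to 36105 counts for MS4A1 and 5765 to 15275 for CD79A), while the T-cell genes CD3D, CD3E and CD3G had at most 3 counts and the erythroid genes HBA1 and HBB had 0. Of the remaining marker genes, EPCAM had 509 to 833 counts in U2932 and at most 3 in TMD8, while KRT8 had at most 3 in U2932 and 36 to 62 in TMD8, and KRT18 at most 3 in both. COL1A1 had 17 to 147 counts in TMD8 and at most 9 in U2932, COL1A2 at most 6 and DCN at most 15, and the myeloid genes CD14, LYZ and CSF1R at most 17, 5 and 11. The second OF and the second isotype libraries of TMD8 stood apart from the other 4 of that line, with 7.16% and 6.50% of counts on ribosomal protein genes against 10.0% to 10.8%, and 3.73% and 3.99% on mitochondrial genes against 5.70% to 6.23%. In U2932 the isotype libraries had 4.74% and 4.44% of counts on ribosomal protein genes and the 4 antibody libraries 6.03% to 6.56%. The part of these shares in the results was not tested, and TMD8 ratios are also given for each culture below.

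The first question was whether an anti-CD20 antibody changed the module against isotype. In U2932 every member that passed the test and the fold limit was higher than with isotype. R raised 12 of the 34 members that passed the filter on low counts, and OF raised 12, of which 10 were raised by both. A member was called at an adjusted p under 0.10 (edgeR's quasi-likelihood test, Benjamini-Hochberg over all 14635 genes) and a change of at least 1.5-fold. Of all genes, 5.19% were called higher with R and 5.90% with OF, while 5.02% and 5.21% were called lower, among which no member stood. Without the fold limit 23 members rose with R and 24 with OF, where 16.8% and 18.7% of all genes did, and 1 fell with each, LPIN1, where 17.4% and 17.8% of all genes fell. The median log2 fold change of the members was 0.46 with R and 0.43 with OF, and that of all genes tested −0.02 and 0.01. With libraries scaled by total counts alone, and not by TMM, all genes had a median of −0.12 with R, and the members stood 0.48 above that median, as they did with TMM. In that fit 7 members were called with R, but the share of all genes called in it is not given here, so this count alone is not a result about the members. R and OF share their isotype libraries, so the similarity of these values is not independent evidence. In bulk RNA, more RNA per cell and a change in how many cells respond cannot be told apart.

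**Figure D1:**
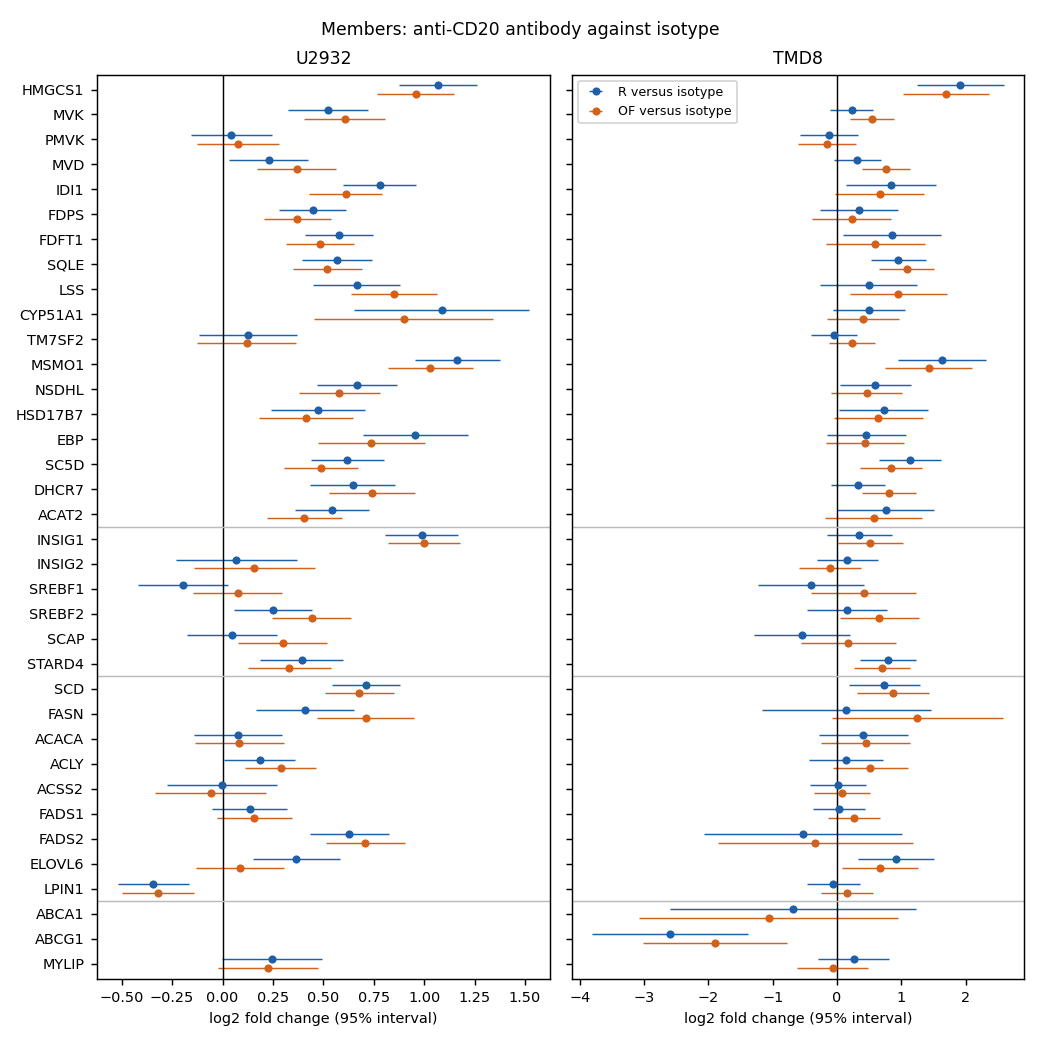
Log2 fold change of each member against isotype, with R in blue and OF in orange, from edgeR without the replicate block. Points are estimates and bars their 95% intervals, rows are grouped as sterol enzymes, regulators, fatty acid enzymes and LXR targets, and the panels have different horizontal scales. All 18 sterol enzymes lie above 0 in U2932 (17 if scaled by total counts alone, PMVK then not), ABCA1 and ABCG1 were not tested there, and the bars are wider in TMD8.

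The sterol enzymes carried most of these calls. All 18 had a positive log2 fold change with each antibody in U2932, or 17 without PMVK when scaled by total counts alone, with a median of 0.60 with R and 0.55 with OF, and 9 were called with R and 8 with OF. Levels in each library are given as CPM, that is counts relative to the library size, scaled within the line by TMM (trimmed mean of M values), with culture 1 before culture 2. Libraries without overlap were common among all genes, so this alone says little about 1 gene. In U2932 28.9% of all genes lay wholly above isotype with R and 32.6% with OF, and 30.9% and 31.8% wholly below. The shares in TMD8 were 23.7% and 18.6% above, and 24.1% and 19.9% below. HMGCS1, the cytosolic synthase that makes HMG-CoA, measured 107.5 and 123 CPM with isotype, 227 and 256.5 with R and 222 and 226 with OF in U2932. Every antibody library stood above every isotype library, and the log2 fold change was 1.07 ± 0.09 (SE) with R (adjusted p = 4.86e-09), and for OF it was 0.96 ± 0.09 (adjusted p = 3.06e-08). MSMO1, which oxidizes a methyl group of the sterol intermediates, measured 53.7 and 60.6 CPM with isotype, 115 and 141 with R and 116 and 118 with OF. Its change was the largest of the members, at 1.16 ± 0.10 with R (adjusted p = 5.11e-09), and for OF it was 1.03 ± 0.10 (adjusted p = 4.43e-08).

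For IDI1, the isomerase of isopentenyl diphosphate, the libraries read 269 and 278 CPM with isotype, 434 and 505 with R and 402 and 433 with OF, with no overlap between antibody and isotype and a log2 change of 0.78 ± 0.09 with R and 0.61 ± 0.09 with OF. SQLE, squalene epoxidase, was at 204 and 218 CPM with isotype, 308 and 318 with R and 297 and 308 with OF. It rose with both antibodies, by 0.57 ± 0.08 and 0.52 ± 0.08, but stayed under the 1.5-fold limit. Lanosterol synthase, LSS, stood at 117 and 91 CPM with isotype, 176 and 154 with R and 187 and 189 with OF, and its change was 0.66 ± 0.10 with R and 0.85 ± 0.10 with OF. The libraries of LSS did not overlap between antibody and isotype, although its isotype libraries differed more from each other than its OF libraries did.

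The enzymes after lanosterol followed. NSDHL, which removes a methyl group as a dehydrogenase, had 42.6 and 40.5 CPM with isotype, 66.1 and 65.95 with R and 61.5 and 62.7 with OF and was called with R (0.67 ± 0.10), whereas with OF it rose by 0.58 ± 0.10, just under the fold limit. EBP, a sterol isomerase, had 10.8 and 12.7 CPM with isotype, 23.8 and 21.8 with R and 20.7 and 18.6 with OF, a change of 0.96 ± 0.13 with R and 0.74 ± 0.13 with OF. Both genes were higher in each antibody library than in each isotype library. SC5D, the sterol desaturase of the next step, had 224.5 and 260.4 CPM with isotype, 355 and 389.7 with R and 344 and 336 with OF. It was called with R (0.62 ± 0.09) and rose with OF by 0.49 ± 0.09 without reaching 1.5-fold. DHCR7, the reductase of the last step to cholesterol, had 109 and 84.7 CPM with isotype, 158 and 144 with R and 158 and 165 with OF and was called with both (0.65 ± 0.10 and 0.74 ± 0.10). Of the remaining sterol enzymes, MVK (mevalonate kinase) was called with OF, though not with the correction for GC content (0.45), and MVD, FDPS, FDFT1, HSD17B7 and ACAT2 rose with both antibodies by 0.23 to 0.58 without reaching 1.5-fold, while PMVK (0.04 and 0.08) and TM7SF2 (0.13 and 0.12) did not pass the test.

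Counts of some members could hold reads of other genes, since the strand setting of the counting was not given in the sources used here. CYP51A1, lanosterol demethylase, was called with both antibodies (1.09 ± 0.21 and 0.90 ± 0.22), but 83.2% of its exon bases are shared with other genes in GENCODE 29, 79.4% with a gene on the same strand, and it had only 1185 counts over all 12 libraries, so its values are uncertain. ACAT2, which makes acetoacetyl-CoA, shares 52.3% of its exon bases with genes on the opposite strand, and HMGCS1, IDI1 and FDPS share 14.95%, 14.8% and 18.6%. HSD17B7, a sterol ketoreductase, had 6971 counts and its 2 named pseudogenes 1604, so reads may have been split between them.

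**Figure D2:**
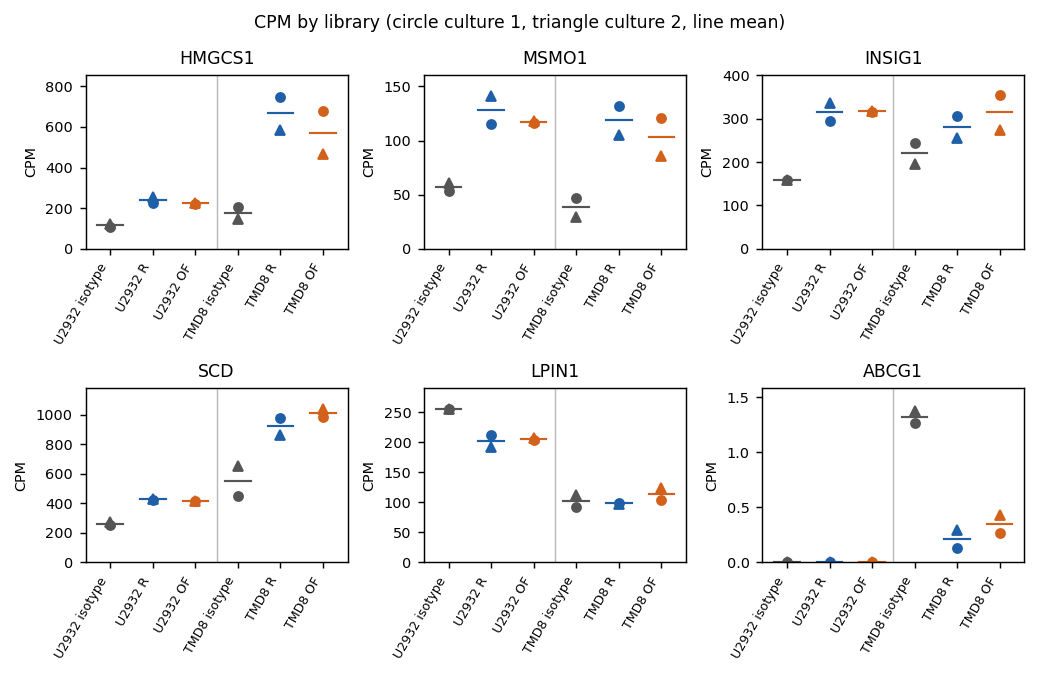
CPM (counts scaled to library size, with TMM factors within each cell line) of 6 members in every library, with the isotype in grey, R in blue and OF in orange. Circles are culture 1, triangles culture 2 and horizontal lines the mean of both, each panel starts at 0, and the vertical line divides U2932 from TMD8. HMGCS1, MSMO1 and SCD stand higher in all antibody libraries of both lines, LPIN1 is lower than isotype in U2932, and ABCG1 has counts in TMD8 only.

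Among the regulators only INSIG1 was called in U2932. INSIG1, itself a known target of SREBP that holds SCAP in the endoplasmic reticulum, measured 159 and 158 CPM with isotype, 294 and 335 with R and 316 and 318.5 with OF. Its isotype libraries agreed to within 1 CPM, all 4 antibody libraries were higher, and the change with R was 0.99 ± 0.09 (adjusted p = 5.6e-09), while OF gave 1.00 ± 0.09 (adjusted p = 5.65e-09). Its paralog INSIG2 measured 10.9 and 11.1 CPM with isotype, 10.03 and 12.99 with R and 12.9 and 11.6 with OF. These libraries overlapped, with changes of 0.07 ± 0.15 and 0.16 ± 0.15.

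SREBF2, which encodes the SREBP most tied to sterol synthesis, measured 318 and 253.5 CPM with isotype, 352 and 329 with R and 394 and 382 with OF. It rose by 0.25 ± 0.09 with R (adjusted p = 0.0482), and for OF it was 0.44 ± 0.09 (adjusted p = 0.000857), under the fold limit but without overlap with isotype. SREBF1, which encodes the SREBP tied to fatty acid synthesis, measured 65.2 and 51.4 CPM with isotype, 51.8 and 49.97 with R and 62.7 and 60.2 with OF. The antibody libraries lay within or near the range of the isotype libraries, and neither change passed the test (−0.20 ± 0.11 with R and 0.08 ± 0.11 with OF), although a correction for GC content gave −0.26 with R at an adjusted p of 0.00791. SCAP measured 58.01 and 46.05 CPM with isotype, 55.9 and 51.5 with R and 66.2 and 61.7 with OF. Only its OF libraries stood above both isotype libraries, with a rise of 0.30 ± 0.11 (adjusted p = 0.0386) against 0.05 ± 0.11 with R, and the GC content correction took the value with OF to 0.12 and an adjusted p of 0.206. STARD4, a carrier of sterol between membranes, rose by 0.39 ± 0.10 and 0.33 ± 0.10.

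Of the 9 enzymes of fatty acid and lipid synthesis, 2 were called with R and 3 with OF in U2932. With the correction for GC content SCD alone was called with each, since FADS2 (0.57 with R and 0.55 with OF) and FASN (0.53 with OF) then rose by less than 1.5-fold. SCD, the desaturase that makes oleate, measured 250.4 and 269 CPM with isotype, 424 and 426 with R and 417 and 415 with OF. The antibody libraries agreed closely and stood above isotype, at 0.71 ± 0.08 with R (adjusted p = 3.79e-07), and for OF it was 0.68 ± 0.08 (adjusted p = 8.51e-07). FADS2, a desaturase of polyunsaturated fatty acids, measured 112 and 92.8 CPM with isotype, 158 and 159 with R and 167 and 168 with OF. No antibody library overlapped isotype, and the change was 0.63 ± 0.10 and 0.71 ± 0.10. FASN, fatty acid synthase, was called with OF (0.71 ± 0.12) and rose under the fold limit with R (0.41 ± 0.12). ELOVL6, an elongase, rose with R by 0.37 ± 0.10, and ACLY, which makes cytosolic acetyl-CoA, rose with OF by 0.29 ± 0.09. ACACA, ACSS2 and FADS1 did not pass the test with either antibody (−0.06 to 0.16).

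LPIN1, a phosphatidate phosphatase also listed as a target of SREBP, was the exception. Its values are given because it was the only member whose fall passed the test without the correction for GC content, a choice made after they were seen. It measured 256 and 256 CPM with isotype, 212 and 192 with R and 203 and 207 with OF in U2932. Both antibodies lay below isotype, by −0.34 ± 0.09 with R (adjusted p = 0.00368), and for OF it was −0.32 ± 0.09 (adjusted p = 0.00599).

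The LXR targets gave little signal in U2932. ABCG1 had 0 counts in all 6 libraries, which allows at most 0.0724 CPM over the isotype libraries if 3 counts are taken as the floor, for counting error only. ABCA1 had 16 and 7 counts with isotype, 1 and 0 with R, and 4 and 8 with OF, too few to pass the filter. MYLIP, a ubiquitin ligase induced by LXR, measured 16.96 and 15.4 CPM with isotype, 19.4 and 18.9 with R and 18.2 and 19.6 with OF. All antibody libraries stood above isotype, but the changes of 0.24 ± 0.12 (adjusted p = 0.14) and 0.22 ± 0.12 (adjusted p = 0.172) did not pass the test.

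In TMD8 HMGCS1 and MSMO1 had the largest positive log2 fold changes of the members, but the spread between cultures was wider, and the number of calls depended on the model. Over all genes the comparison of R with isotype had a median SE of 0.25 on the log2 scale in TMD8, against 0.12 in U2932. In edgeR on the 6 libraries of the line without the culture in the model, R raised 1 of 36 members, HMGCS1, and OF raised 2, HMGCS1 and SQLE, where 0.401% and 0.471% of all 14227 genes tested were called higher. With the culture number as a block, 12 members were called higher with R and 15 with OF, where 5.04% and 5.17% of all genes were, and 1 was called lower with each, ABCG1, where 5.96% and 4.58% of all genes were, a gene that passed the filter on low counts only through its isotype libraries. A fit without the second OF and the second isotype library leaves 1 OF and 1 isotype library to compare, so no calls from it are given. The median log2 fold change of the 36 members was 0.34 with R and 0.52 with OF, and −0.02 and −0.01 over all genes. DESeq2 without the block called 7 members with R and 9 with OF, but the share of all genes called in that fit is not given here. Scaled by total counts alone the median of all genes with R was −0.16, and the members stood 0.36 above it, as with TMM.

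HMGCS1 again stood out, at 207 and 146 CPM with isotype, 748 and 586.5 with R and 680.0 and 465 with OF in TMD8. The lowest antibody library was more than 2-fold above the highest isotype library, and the change was 1.92 ± 0.28 with R (adjusted p = 0.0814; 0.00143 with the block), and for OF it was 1.70 ± 0.28 (adjusted p = 0.095; 0.00196 with the block). MSMO1 measured 47.4 and 29.5 CPM with isotype, 132 and 105.5 with R and 121 and 85.4 with OF, a change of 1.63 ± 0.29 with R and 1.42 ± 0.29 with OF. This change passed with the block (adjusted p = 0.00143 and 0.00279) and not in the same fit without it. With a correction for GC content and no block it also passed (adjusted p = 0.0639 and 0.0648, edgeR). SQLE measured 150.0 and 139.6 CPM with isotype, 302 and 258 with R and 335 and 279 with OF. Its isotype libraries agreed well and the change was 0.95 ± 0.18 with R (adjusted p = 0.104; 0.00607 with the block), and for OF it was 1.08 ± 0.18 (adjusted p = 0.095; 0.00557 with the block).

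The level of SC5D was low in this line, at 21.6 and 17.1 CPM with isotype, 45.6 and 39.3 with R and 38.6 and 30.5 with OF, yet no antibody library overlapped isotype. Its change of 1.14 ± 0.20 and 0.84 ± 0.20 was called with the block for both antibodies. IDI1 measured 246 and 157 CPM with isotype, 398.5 and 321 with R and 381 and 257 with OF and was called in the same way (0.84 ± 0.29 and 0.66 ± 0.29). Culture 2 was the lower one in each group of IDI1, so that its OF library lay just above the isotype library of culture 1. NSDHL measured 79.5 and 60.7 CPM with isotype, 113 and 98.4 with R and 114 and 79.1 with OF, and its OF library of culture 2 fell within the isotype range. With the block NSDHL was called with R, and with OF it passed without reaching 1.5-fold (adjusted p = 0.0719).

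Other sterol enzymes depended on the antibody or on the block. LSS measured 57.3 and 110.4 CPM with isotype, 114 and 122 with R and 138 and 187 with OF, with isotype libraries far apart but both below every antibody library. Of the fits with and without the block, it was called only with OF and the block (blocked change 1.00 ± 0.19). With a correction for GC content and the block, LSS also passed the adjusted p limit with R (adjusted p = 0.0325, edgeR). DHCR7 measured 75.03 and 96.7 CPM with isotype, 111 and 105.5 with R and 144 and 156 with OF. Without the GC content correction it too was called only with OF and the block (0.81 ± 0.14) of these fits. With that correction and no block DHCR7 was called with OF (0.71, adjusted p = 0.08, edgeR). EBP measured 13.2 and 8.8 CPM with isotype, 13.99 and 16.04 with R and 16.9 and 12.7 with OF and passed in no fit given here (0.46 ± 0.26 and 0.44 ± 0.26). With the block FDFT1 and HSD17B7 were called with both antibodies, ACAT2 with R and MVD with OF. That a gene was called with 1 antibody only does not show that the antibodies differed, which is tested below.

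INSIG1 measured 244 and 196 CPM with isotype, 305 and 255 with R and 355 and 274 with OF in TMD8. The groups did not overlap, but the change was 0.35 ± 0.21 with R and 0.52 ± 0.21 with OF, and with the block only the value with OF passed (adjusted p = 0.123 and 0.0492), under 1.5-fold. SREBF2 measured 187 and 293 CPM with isotype, 268 and 266.5 with R and 324 and 435 with OF, and was called with OF and the block (0.67 ± 0.17). SREBF1 measured 24.3 and 39.8 CPM with isotype, 25.5 and 23.2 with R and 29.7 and 56.04 with OF. Its isotype and OF libraries of culture 2 were well above those of culture 1, the R libraries were not, and no change passed (−0.40 ± 0.35 and 0.42 ± 0.34). The same held for SCAP, which measured 52.7 and 95.4 CPM with isotype, 49.03 and 52.8 with R and 67.4 and 100.1 with OF and changed by −0.54 ± 0.31 and 0.18 ± 0.31. INSIG2 measured 28.5 and 23.2 CPM with isotype, 31.2 and 26.6 with R and 26.9 and 20.8 with OF and did not pass. STARD4 was called with both antibodies with the block (0.80 ± 0.12 and 0.70 ± 0.12).

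SCD measured 451 and 654 CPM with isotype, 978 and 863 with R and 984 and 1035 with OF, the highest CPM of the members with values by library here. Antibody and isotype did not overlap, and with the block it was called with R (0.75 ± 0.19) and OF (0.88 ± 0.19). ELOVL6 was likewise called with both (0.91 ± 0.15 and 0.65 ± 0.15). FADS2 was nearly silent, with 8 and 35 counts with isotype, 14 and 5 with R, and 9 and 12 with OF, and did not pass. FASN measured 111 and 359 CPM with isotype, 248 and 273 with R and 362 and 756 with OF, values given because its libraries differed so much between cultures, a choice made after they were seen. The isotype libraries of FASN bracketed those of R. Of the fits with and without the block, the gene was called only with OF and the block (1.34 ± 0.30). LPIN1, which fell in U2932, changed by −0.06 ± 0.17 with R and 0.16 ± 0.17 with OF and did not pass.

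ABCG1, a sterol exporter, had 23 and 41 counts with isotype in TMD8, 2 and 5 with R, and 4 and 7 with OF. Expressed as CPM these were 1.26 and 1.37, 0.125 and 0.296, and 0.264 and 0.429. Antibody and isotype libraries of ABCG1 did not overlap, and the log2 fold change was −2.60 ± 0.51 with R and −1.90 ± 0.47 with OF, which passed with the block (adjusted p = 0.0187 and 0.0423) and not without it (0.106 and 0.16). With a correction for GC content and no block the value with R passed and that with OF did not (adjusted p = 0.0815 and 0.107, edgeR). No antibody library of ABCG1 reached 10 counts, so the gene passed the filter through its isotype libraries alone, and a fall of a gene kept in this way is in part set by the filter. ABCA1 had 11 and 25 counts with isotype, 3 and 12 with R, and 1 and 10 with OF and did not pass. MYLIP measured 5.98 and 7.33 CPM with isotype, 8.74 and 7.28 with R and 5.67 and 7.04 with OF, overlapped between groups and did not pass (0.26 ± 0.23 and −0.07 ± 0.23).

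Because each culture gave 1 library per antibody, each antibody library was also set against the isotype library of its own culture. In U2932, 27 of 34 members were higher with R in both cultures and 30 with OF, where 35.5% and 37.6% of all genes tested were. In TMD8, 21 of 36 members were higher with R in both cultures and 29 with OF, where 30.8% and 38.2% of all genes were. The median log2 ratio of the members with R in TMD8 was 0.49 in culture 1 and 0.19 in culture 2, the culture whose isotype library stood apart, and with OF it was 0.53 and 0.49. Members lower in both cultures were SREBF1 and LPIN1 with R and LPIN1 with OF in U2932, SCAP, ABCA1 and ABCG1 with R in TMD8, and PMVK, INSIG2, ABCA1, ABCG1 and MYLIP with OF in TMD8. Of all genes, 38.1% with R and 36.8% with OF were lower in both cultures of U2932, and 32.2% and 37.8% in those of TMD8. ABCG1 passed the filter on low counts through its isotype libraries alone, so its place among the lower members is in part set by the filter.

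**Figure D3:**
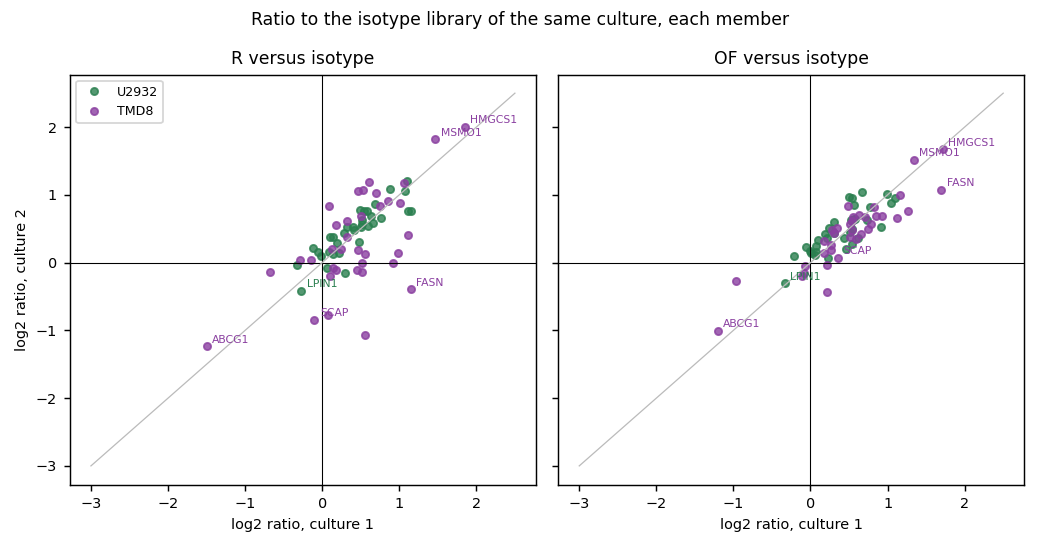
Log2 ratio of each antibody library to the isotype library of the same culture, for culture 1 on the horizontal and culture 2 on the vertical axis, with U2932 in green and TMD8 in purple and the diagonal in grey. Each point is 1 member, and ratios were taken after adding 0.5 CPM, which brings the ratios of low genes such as ABCG1 nearer to 0. Most points lie in the upper right, above 0 in both cultures, HMGCS1 and MSMO1 of TMD8 farthest out, and several TMD8 points with R lie below 0 for culture 2 only.

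The share of all counts that fell on the 36 members shows the same values at the level of the whole library. In U2932 it was 0.458% and 0.428% with isotype, 0.584% and 0.575% with R, and 0.586% and 0.591% with OF. In TMD8 it was 0.358% and 0.431% with isotype, 0.564% and 0.524% with R, and 0.598% and 0.660% with OF. No antibody library was as low as an isotype library of its line.

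The second question was whether R and OF differed from each other, since they bind different epitopes. No member was called between them in either line, and hardly any gene was, with 0.00683% of all genes called in U2932 (1 gene, at the adjusted p limit of 0.30 used for this comparison) and 0% in TMD8. DESeq2 called 0 members as well, and 4 of 34 members in U2932 and 2 of 36 in TMD8 had an unadjusted p under 0.05, where 5.1% and 4.09% of all genes did. In U2932 the log2 ratio of R to OF ran from −0.30 for FASN to 0.28 for ELOVL6, and the 95% interval of 33 of the 34 members lay within 1.5-fold on both sides, all but CYP51A1. HMGCS1 had a ratio of 0.11 (−0.08 to 0.30) and INSIG1 of −0.01 (−0.19 to 0.17). The intervals that left out 0 belonged to SREBF1 (−0.27), SCAP (−0.25), FASN (−0.30) and ELOVL6 (0.28), each with an adjusted p of 0.91. In U2932 a difference between the antibodies of more than 1.5-fold therefore lay outside the interval for nearly every member.

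The data of TMD8 did not allow such a limit. The intervals of only 4 of 36 members lay within 1.5-fold, with a median half-width of 0.58 on the log2 scale against 0.20 in U2932. Values ran from −1.10 for FASN (−2.43 to 0.23) to 0.38, and the intervals that left out 0 were those of MVD (−0.45) and DHCR7 (−0.47), with an adjusted p of 0.733. HMGCS1 had a ratio of 0.22 (−0.43 to 0.87). A correction for GC content brought MVD, with 65.6% GC in its transcript, to −0.05 and DHCR7, with 58.3%, to −0.23. FASN, SREBF1 (−0.82) and SCAP (−0.72), with 65.3%, 64.7% and 62.3% GC, went to −0.65, −0.38 and −0.36.

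**Figure D4:**
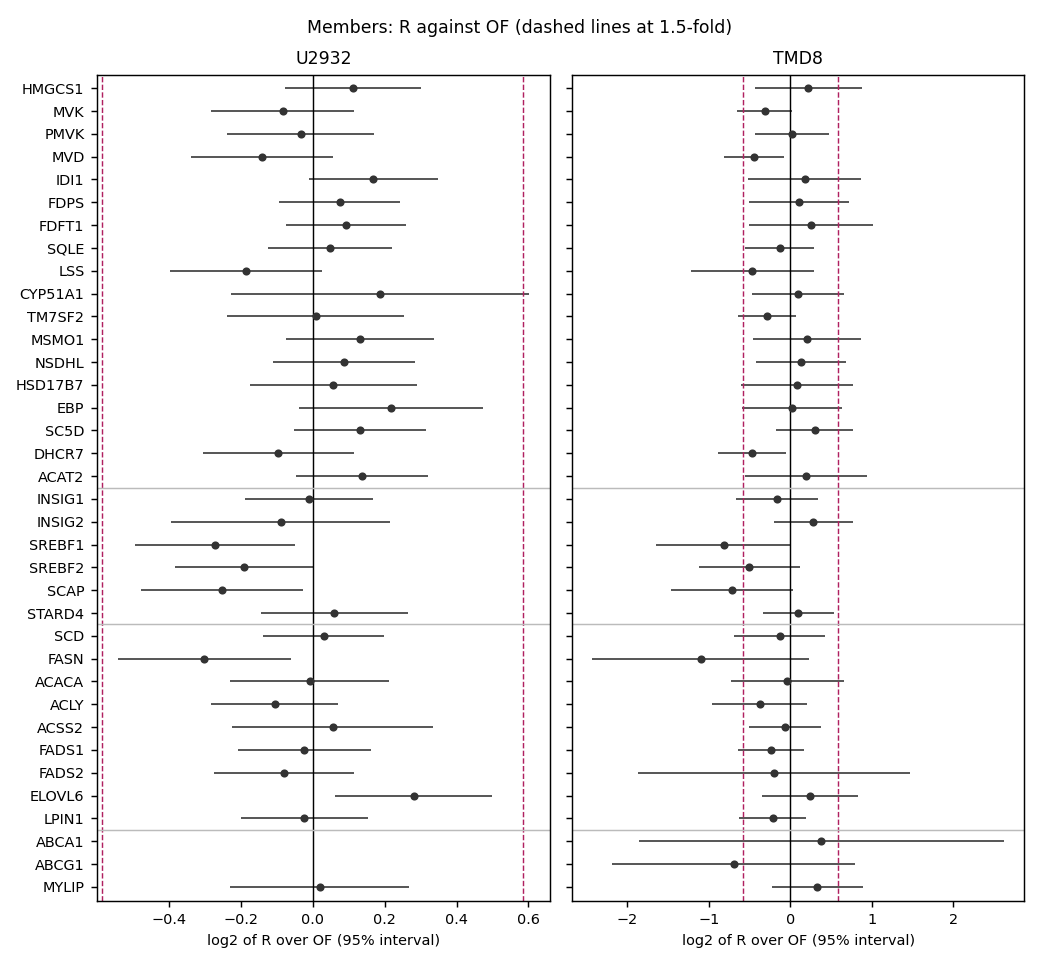
Log2 ratio of R to OF for each member in U2932 and TMD8, with 95% intervals from edgeR, in the same row order by role. Dashed lines mark 1.5-fold in either direction, and the panels have different horizontal scales. All intervals in U2932 other than that of CYP51A1 stay inside the dashed lines, and most of those in TMD8 cross one or both.

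Whether the antibodies acted differently in the 2 lines was tested as an interaction. Without the block no member was called for either antibody, where 0.321% of all 16187 genes tested were called for R and 0.105% for OF, and 4 of 36 members had an unadjusted p under 0.05 with each antibody, where 11.9% and 8.46% of all genes did. With the block 2 members (5.56%) were called for R, where 4.76% of all genes were, and 1 (2.78%) for OF, where 2.19% were. The members thus did not stand out by their number from other genes. HMGCS1 rose less in U2932 than in TMD8, the difference being −0.86 ± 0.15 for R (adjusted p = 0.0137) and −0.73 ± 0.15 for OF (adjusted p = 0.0383). INSIG1 rose more in U2932 with R, by 0.64 ± 0.15 (adjusted p = 0.0353). Across the 34 members tested in both lines, the log2 fold changes of the lines had a Pearson correlation of 0.67 with R and 0.57 with OF, against 0.39 and 0.46 over all genes tested in both. The libraries of the lines are separate, the points are genes and not replicates, and 27 members with R and 28 with OF lay above 0 in both lines, where 30.3% and 34.7% of all genes did, while 5 and 6 went opposite ways. The share of all genes that went opposite ways is not given here.

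Levels were also compared between the lines under isotype. Here 8 of 36 members were called higher in U2932 than in TMD8 and 10 lower, where 28.1% and 28.0% of all 16187 genes were, so the members did not stand out by their number from other genes. To compare genes with each other, levels are given as CPM per kb of the longest coding transcript, with all 12 libraries scaled together. FDPS, which makes farnesyl diphosphate, was highest in both lines, at 203 ± 7.68 (SD, n = 2) CPM per kb in U2932 and 202 ± 54.5 in TMD8, and FDFT1, squalene synthase, came next at 126 ± 2.27 and 110 ± 39.6. In TMD8 these neighbours did not differ beyond their spread. The order then parted, with MVD (98.7 ± 15.4) and SC5D (94.2 ± 10.1) next in U2932, again within their spread, and SCD (108 ± 29.5) next in TMD8. SC5D was 25th of 36 in TMD8, at 8.27 ± 1.27.

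FADS2 stood at 26.9 ± 3.54 CPM per kb in U2932 and 0.234 ± 0.153 in TMD8, a log2 difference of 6.73 ± 0.32 or 106-fold (adjusted p = 1.8e-08). FADS1, which acts in the same route, stood at 27.8 ± 1.44 and 4.43 ± 0.531, or 6.27-fold, and SC5D differed by 11.4-fold. MVD, SREBF1, ELOVL6, LPIN1 and MYLIP were also higher in U2932, by 1.64-fold to 2.60-fold. INSIG2 was lower in U2932, at 4.05 ± 0.0608 against 10.5 ± 1.39 CPM per kb, as were TM7SF2, SCD, NSDHL, CYP51A1, HMGCS1, SCAP, INSIG1 and ACLY, by 1.51-fold to 2.35-fold. ABCG1, the last of the 10, was at least 19.4-fold higher in TMD8, taking 3 counts over the U2932 isotype libraries as the floor. ABCA1 was near the limit of detection in both lines, at 0.0487 ± 0.0276 and 0.0722 ± 0.0175. Batch and line cannot be told apart if the lines were prepared separately, which the labels do not say.

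**Figure D5:**
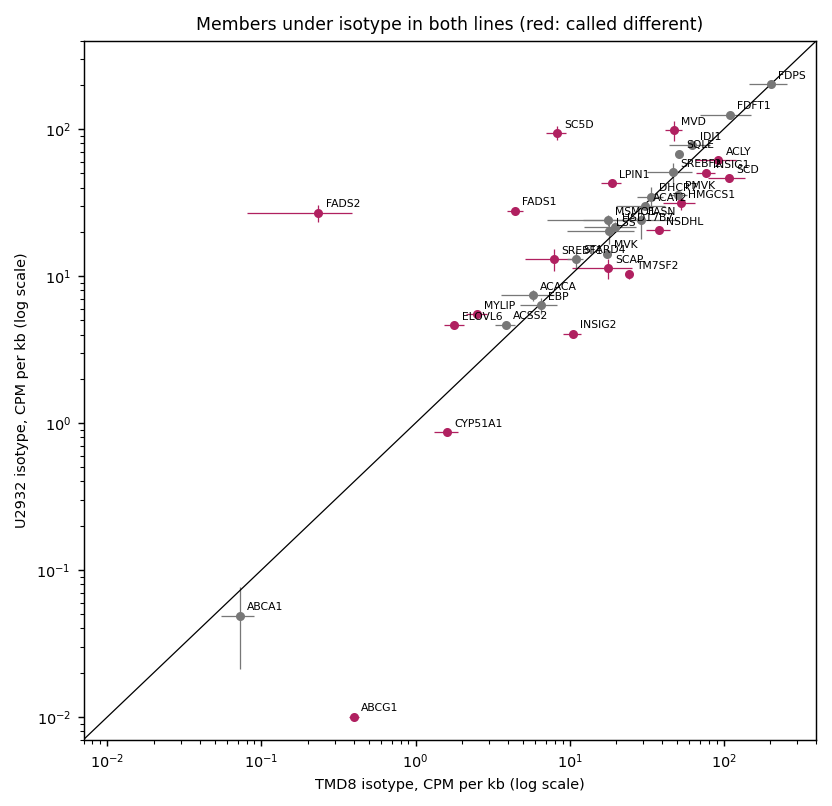
Mean level of each member under isotype in CPM per kb of transcript, TMD8 on the horizontal and U2932 on the vertical axis, both logarithmic, with bars of 1 SD over 2 libraries. The line marks equal levels, and red points were called different between the lines. ABCG1 had 0 counts in U2932 and is drawn at 0.01, FADS2, SC5D and FADS1 lie far above the line, and FDPS lies on it at the top.

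Further genes of these pathways, 32 on a list that holds no member, give context, and 30 of them were tested in each line. In U2932, 5 were called higher with R, 6 with OF and 0 lower with either. Of all genes, 5.19% and 5.90% were called higher there, and 5.02% and 5.21% lower. They were TMEM97, a sterol-regulated membrane protein (1.07 ± 0.09 with R and 0.94 ± 0.09 with OF), ERG28, a scaffold of the sterol demethylation enzymes (1.04 ± 0.10 and 0.89 ± 0.10), MBTPS1, the Golgi protease that cuts SREBP (1.21 ± 0.09 and 1.26 ± 0.09), ELOVL5, a fatty acid elongase (0.84 ± 0.09 and 0.77 ± 0.09), NR1H2, an LXR receptor (0.59 ± 0.09 and 0.61 ± 0.09), and with OF also SLC25A1, the citrate carrier (0.61 ± 0.10). In TMD8 without the block ELOVL5 was called with both antibodies (1.44 ± 0.18 and 1.27 ± 0.18) and TMEM97 with R (1.52 ± 0.23), where 0.401% and 0.471% of all genes were called higher. With the block 9 were higher with R and 7 with OF, where 5.04% and 5.17% of all genes were. With R 3 were called lower and with OF 2, where 5.96% and 4.58% of all genes were. Those called lower included NR1H3, the LXR receptor of the second kind (−1.29 ± 0.28 with R and −1.53 ± 0.29 with OF), RXRA, the partner of LXR (−0.85 ± 0.29 with R), and GPAM, an acyltransferase of glycerolipid synthesis (−0.61 ± 0.13 with OF). NR1H2 was called higher in TMD8 with the block (0.62 ± 0.13 and 0.76 ± 0.13).

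The CCAAT box can be set beside these calls. Of the 10 members called with both antibodies in U2932, 9 held it in a promoter, the exception being CYP51A1. Of the 13 members with a promoter that were called with 1 or both antibodies, 12 held it, and of the 18 others with a promoter, 10 did. No test was made of this split, and the members were listed as a pathway and not drawn from all genes.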

How the data were processed

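RNA-seq was analysed in 12 libraries of U2932 and TMD8 cells (NEBNext Ultra II RNA kit). The authors deposited raw counts of reads per gene, with no normalization and no filter. Per the submitters' processing notes, Trim Galore 0.6.0, cutadapt, FastQC, STAR 2.7.0e, DESeq2 1.26.0 and GRCh38 (hg38) were used. The annotation release and the strand setting of the counting are not given in the sources used here. All columns were matched to a library by label (0 columns and 0 lines without a gene left out), and groups follow the labels.

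The tests used edgeR 4.0.16 in R 4.3.3 (TMM, filterByExpr with at least 10 counts, quasi-likelihood test, 1 mean per antibody over the 6 libraries of a line, or per line and antibody over all 12 for comparisons between lines). Members were called at an adjusted p under 0.10 (0.30 where R was compared with OF in U2932) and at least 1.5-fold, Benjamini-Hochberg over all genes tested. CPM are scaled by TMM. Positions, GC content and transcript length came from GENCODE 29, promoters from RefSeq (GRCh38.p14). Intervals are 95%. Python 3.11.15 and matplotlib 3.10.9 were used for the remaining steps.

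The culture number marks cultures kept apart before treatment, so it pairs libraries by the labels. In TMD8 deviations of same-numbered libraries from their group means correlated at 0.22 for R and OF, 0.23 for R and isotype, and 0.69 for OF and isotype. In U2932 the same pairs gave −0.05, 0.10 and −0.0007. The pair at 0.69 holds the 2 libraries of TMD8 that stood apart. Little shared variation was thus seen for R with isotype in TMD8, where most calls with R rest on the block. The fit with this block is given beside results it changes. Replicates differed beyond counting error in every group (chi-square of 2.41 to 113 per degree of freedom), so none was a repeat of another.

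The members, the gene lists and the tests were chosen with earlier results of these data known. Values by library are given for members called in a comparison with isotype (up to the 8 with the smallest adjusted p in each), SREBF1, SREBF2, SCAP, INSIG1, INSIG2 and the LXR targets, and for LPIN1 and FASN outside this rule. Of the further pathway genes, 1 is not reported here. Alternatives were DESeq2 1.42.0, other scalings, filters and limits, other libraries in the fit, the replicate block, a GC content correction (lowess, span 0.3), and leaving out each library. The fit without TMD8 OF 2 and isotype 2 was added after seeing the data.

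The test was also checked on simulated data with 200 changed genes, 50 at each of 4 sizes. For R with isotype in U2932 (14412 genes), 84% of the 1.5-fold changes passed the adjusted p limit, 50% were also called at 1.5-fold or more, and 100% of 2-fold changes were called. In TMD8 (13992 genes), 6% of 1.5-fold, 32% of 2-fold and 94% of 3-fold changes were called.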

Additional observations from a re-analysis of the deposited data

Results flagged for a closer look

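The increase of HMGCS1 differed between the lines when the culture was a block, with a log2 fold change in U2932 minus that in TMD8 of −0.86 ± 0.15 with R (adjusted p = 0.0137, edgeR's quasi-likelihood test) and −0.73 ± 0.15 with OF (adjusted p = 0.0383). Without the block the differences were −0.85 ± 0.29 (adjusted p = 0.289) and −0.74 ± 0.29 (adjusted p = 0.508). The ratios to the isotype library of the same culture were 1.07 and 1.06 in U2932 and 1.85 and 2.00 in TMD8 with R, and 1.04 and 0.87 in U2932 and 1.72 and 1.67 in TMD8 with OF, on a log2 scale, so that both cultures of TMD8 exceeded both cultures of U2932.

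INSIG1 differed the other way with R, by 0.64 ± 0.15 with the block (adjusted p = 0.0353, edgeR) and 0.65 ± 0.22 without it (adjusted p = 0.289). Its culture ratios were 0.88 and 1.08 in U2932 and 0.32 and 0.38 in TMD8. For both antibodies the share of members called in this test with the block was near that of all genes, as given above.

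With OF, 4 members moved one way in both cultures of U2932 and the other way in both cultures of TMD8. The share of all genes that did so is not given here, so this count alone is not a result about the members. For PMVK the log2 ratio in culture 1 of U2932 was only 0.0079. The difference between lines was 0.23 for PMVK, 0.27 for INSIG2, −0.48 for LPIN1 and 0.30 for MYLIP. None of these passed the test of the difference (adjusted p of 0.854, 0.863, 0.525 and 0.833, edgeR), nor did LPIN1 with the block (adjusted p = 0.187).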

How the results depend on the processing

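Counts below are members called, by edgeR unless DESeq2 is named. The share of all genes called also moved with the fit, so these counts alone are not results about the members. In the main fit 10.2% of all genes were called with R and 11.1% with OF in U2932, and 0.647% and 0.815% in TMD8. With no fold limit the shares in U2932 were 34.2% and 36.4%. The replicate block gave 10.4% and 11.4% in U2932 and 11% and 9.75% in TMD8. Shares for the other fits against isotype are not given here. In U2932 the counts of 12 with each antibody went to 7 with R under total counts only, to 24 and 25 with no fold limit, and to 3 and 1 at 2-fold or more. They ran from 11 to 15 with R and 9 to 13 with OF without single libraries, the replicate block left both at 12, and the GC content correction gave 11 and 10. In TMD8 the counts of 1 with R and 2 with OF depended on the model. The replicate block gave 13 and 16, DESeq2 7 and 9, DESeq2 with the replicate block 12 and 15, the GC content correction 6 and 6, and that correction with the replicate block 14 and 16. All 12 libraries in one fit gave 13 and 11, and no filter on low counts 12 and 12. At least 10 counts in every library gave 4 with R, an adjusted p under 0.05 gave 0 and 0, and with OF total counts only and the 4 libraries compared gave 0 each.

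Single libraries of TMD8 moved these counts to between 0 and 8 with R and between 0 and 9 with OF. With R the count was 8 without isotype 1, 2 without OF 1 or OF 2, and 0 without R 1, R 2 or isotype 2. With OF it was 9 without isotype 2 and 0 without any other single library. The causes were not tested. Between R and OF 0 members were called in every fit except that without a filter in TMD8, which gave 1, and between the lines under isotype the 18 calls became 11 at 2-fold or more and 16 to 20 without single libraries. The interaction with cell line, 0 for each antibody, became 2 with R and 1 with OF under the replicate block, under DESeq2 with the replicate block and under the GC content correction with the replicate block. It was 1 with R with no filter, and 0 to 3 with R and 0 with OF without single libraries, the 3 being without TMD8 isotype 1. Among the members given by library under the rule above, no call against isotype reversed in these fits. Other calls were not checked for this. No paired fit was made of U2932 with TMD8 under isotype, since cultures are not shared between lines. With 2 cultures per line, simulated 1.5-fold changes were mostly missed in TMD8.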
